A study of Homo sapiens with 12 samples.

Results

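Fulvestrant, a drug that binds the oestrogen receptor (ER) and targets it for degradation, was added to CAMA-1 cells that were also receiving abemaciclib, an inhibitor of the cyclin-dependent kinases CDK4 and CDK6. CAMA-1 is an established human line from an ER-positive luminal breast cancer, labelled here as wild-type and grown in RPMI-1640. The comparison set the 3 libraries of the combination group, given abemaciclib and fulvestrant together, against the 3 libraries of the abemaciclib group, given 100 nM abemaciclib. It used 6 of the 12 libraries in the series and covered 11803 genes that were abundant enough to test. The other 6 libraries, 3 from DMSO vehicle and 3 from 5 nM fulvestrant, gave the effect of fulvestrant in cells without abemaciclib. For the combination the treatment label names both drugs without their doses. All 12 libraries are cultures of 1 cell line, which limits the comparison as a model of tumours.

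ER is a nuclear receptor that drives transcription when bound by oestrogen, and in luminal breast cells its targets include genes that start the cell cycle. One of them, cyclin D1, activates CDK4 and CDK6, which phosphorylate the retinoblastoma protein (Rb). Unphosphorylated Rb holds back the E2F transcription factors, whose targets carry out DNA replication. The related pocket proteins p107 and p130, as part of the DREAM complex, hold back genes of mitosis, many of which carry a short promoter element called the cell cycle genes homology region (CHR). Fulvestrant and abemaciclib therefore act on consecutive steps of the same pathway.

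Transcripts were counted by 3′ RNA sequencing, which reads 1 region near the end of each transcript. Values are library-scaled CPM, in which a count is divided by the TMM-scaled total of its library. The 6 libraries compared held between 4014225 and 5119366 counts. All 12 libraries were most similar to a library from their own treatment. Between the 3 abemaciclib and the 3 combination libraries, correlations of log2 CPM across genes reached at most 0.944, against at least 0.983 within a group. Among the 6 libraries used only for comparison, replicate 3 of fulvestrant stood furthest from its own group. All 10 luminal epithelial markers checked were detected, and their summed level was 7809 to 7863 CPM in abemaciclib and 7789 to 8083 CPM in the combination. Unlike other values, these and the other marker levels in this paragraph are CPM of the raw library total, without TMM scaling. None of 4 leukocyte and 3 endothelial markers exceeded 3 counts in any library. Of 6 fibroblast markers, 4 were at 0 counts. COL1A1 and COL3A1 were detected, and the fibroblast sums were 24.42 to 31.64 CPM in abemaciclib and 24.31 to 28.12 CPM in the combination. Of 6 basal markers, 3 exceeded 3 counts, with sums of 51.82 to 80.09 CPM in abemaciclib and 67.1 to 77.71 CPM in the combination. MYLK, the myosin light chain kinase gene, carried nearly all of that sum, with means of 64.3 and 72.4 CPM, and the other 5 basal markers, KRT5 and TP63 among them, were below 1 CPM.

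Adding fulvestrant changed 3959 of the 11803 genes (33.5%), of which 1871 rose (15.9%) and 2088 fell (17.7%), by edgeR's quasi-likelihood test with a Benjamini-Hochberg adjusted p under 0.05. These shares over all genes are the background for each list count of this comparison. The genes that fell moved further. The median log2 fold change was 0.55 among genes that rose and -0.70 among genes that fell, and 308 rose and 677 fell by at least 2-fold. At least 2-fold falls included 136 genes of the cell cycle lists described here. A further limit at the low end was that 112 genes had at most 3 counts in every combination library but not in every abemaciclib library, against 7 genes the other way round. The median over all genes tested was 0.01, so log2 fold changes given here are close to changes relative to the typical transcript. Each log2 fold change is the combination minus abemaciclib, with its standard error, and each adjusted p is from the same edgeR test across all genes. With 3 libraries against 3, an exact permutation test of a single gene cannot give a two-sided p below 0.1. In bulk RNA, fewer cells expressing a gene and less RNA per cell cannot be told apart.

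ER target genes were among the deepest falls outside the cell cycle lists. Of 55 genes widely used as ER targets in breast cells, 46 were tested, 38 fell and 2 rose, and their median log2 fold change was -1.46. PTGES, which encodes a prostaglandin E synthase, was at 77.4, 84.1 and 75.3 CPM in the abemaciclib libraries and at 1.2, 0 and 0.194 CPM in the combination libraries. Its log2 fold change of -7.45 ± 0.29 (adjusted p = 5.5e-17) was the largest fall of any gene outside the cell cycle lists that passed the naming rule. TFF1, a secreted trefoil peptide used as a marker of ER activity, went from 367, 383 and 395 CPM to 1.92, 2.89 and 2.14 CPM, and no combination library reached 1% of an abemaciclib library. GREB1, an ER cofactor that is itself a target, went from 122, 130.5 and 129 CPM to 6.98, 8.89 and 7.18 CPM. The progesterone receptor gene PGR was lower at the outset, at 23.8, 24.1 and 29.8 CPM, and fell to 1.44, 2.69 and 1.17 CPM.

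ELOVL2, a fatty acid elongase, was among the most uniform, with abemaciclib libraries at 94.4, 97.1 and 96.5 CPM and combination libraries at 10.1, 11.4 and 10.9 CPM. Its log2 fold change was -3.15 ± 0.11 (adjusted p = 4.1e-18). STC2, a secreted glycoprotein that is both an ER target and a target of the stress factor ATF4, went from 439, 369 and 347 CPM to 26.5, 32.7 and 36.7 CPM, a log2 fold change of -3.58 ± 0.12 (adjusted p = 5.9e-17). EGR3, an immediate early transcription factor, had at most 3 counts in each combination library and was at least 8.82-fold lower than in abemaciclib, where it was at 4, 6.4 and 6.57 CPM. XBP1, a secretory pathway transcription factor, fell less, from 1135, 1190.2 and 1212 CPM to 738, 709.6 and 720.2 CPM, with a log2 fold change of -0.71 ± 0.07 (adjusted p = 5.3e-09). Of the 2 genes of the list that rose, BCAS1 (breast carcinoma amplified sequence 1, named after its value was seen) went from 151, 154 and 148 CPM to 245, 243 and 258 CPM, and its libraries did not overlap between groups.

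The receptor's own transcript and its partners moved much less than the targets. ESR1, which encodes ER, was at 103, 98.9 and 106 CPM in abemaciclib and 83.7, 76.3 and 84.5 CPM in the combination, a log2 fold change of -0.33 ± 0.09 (adjusted p = 0.006). The groups did not overlap. The drug acts on the protein, which was not measured. Of 24 genes for ER, its pioneer factors and its coregulators, 7 rose and 3 fell, with a median of 0.14. GATA3, a pioneer factor of luminal cells, rose from 2678, 2471 and 2578 CPM to 4019, 3674 and 3348 CPM, log2 fold change 0.51 ± 0.09 (adjusted p = 6e-05). The corepressor genes TLE3 and NCOR1 rose by 0.44 ± 0.08 and 0.40 ± 0.09 on the log2 scale, with adjusted p of 9.1e-05 and 0.001. NRIP1, a coregulator that is also an ER target, went the other way, from 37.4, 32.7 and 42.7 CPM to 20.9, 26.1 and 27.2 CPM. FOXA1, the other main pioneer factor, was at 227, 252 and 269 CPM and 270.4, 285 and 221 CPM, and its log2 fold change of 0.06 ± 0.09 (adjusted p = 0.68) did not pass the test.

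The insulin-like growth factor (IGF) arm, which signals alongside ER in breast cells, fell at its receptor and its adaptor. Of 12 tested members, 4 fell and 1 rose. IGF1R, the receptor, went from 10.4, 12.6 and 14.9 CPM to 2.65, 1.24 and 1.36 CPM, a log2 fold change of -2.86 ± 0.35 (adjusted p = 3.3e-07). IRS1, the adaptor that carries its signal to PI3K, went from 9.8, 11.5 and 9.85 CPM to 2.17, 3.31 and 2.72 CPM, with a change of -1.90 ± 0.25 (adjusted p = 1.1e-06). IGFBP4, which binds and sequesters IGF, went from 181, 188 and 179 CPM to 53.4, 56.4 and 57.3 CPM. In all of these genes every combination library was below every abemaciclib library. INSR, the insulin receptor, was not called, at 0.09 ± 0.12 on the log2 scale.

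**Figure D1:**
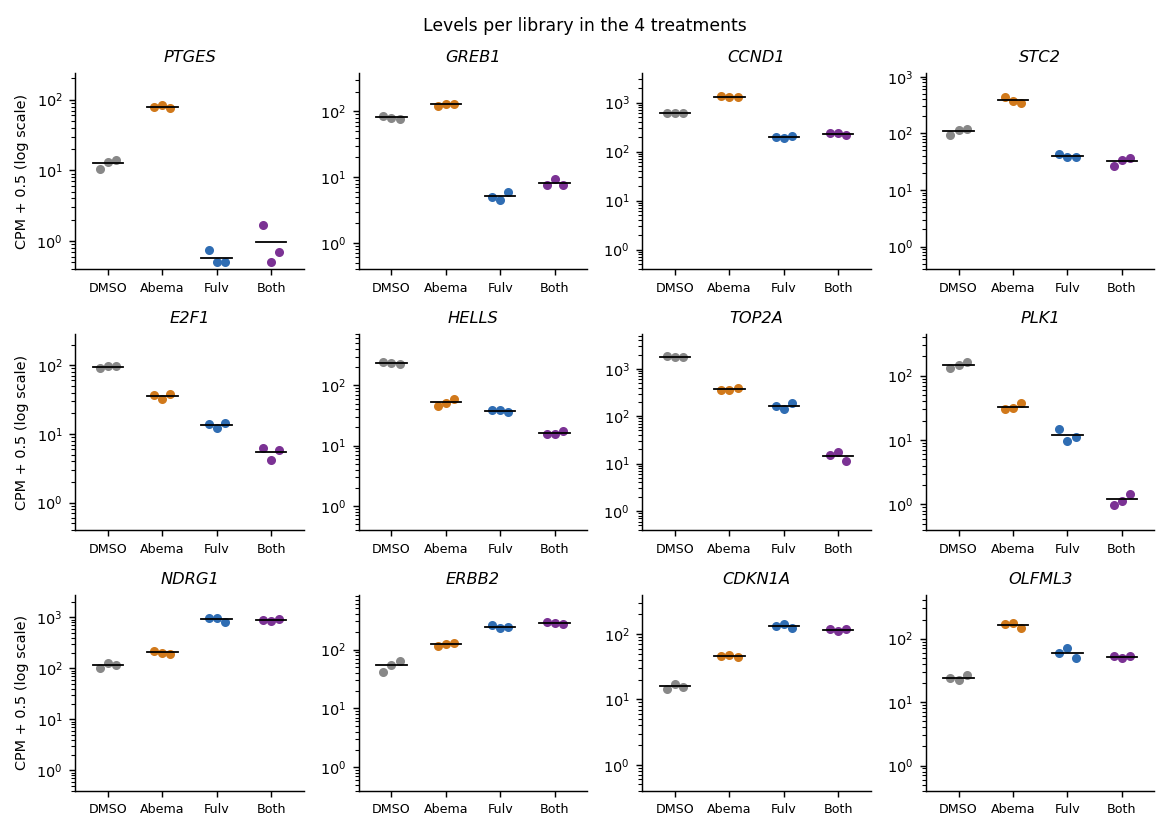
Level of 12 genes in each of the 12 libraries, in CPM plus 0.5 on a log axis. Each point is 1 library, each horizontal line is a group mean, and the groups are DMSO, abemaciclib, fulvestrant and the combination. PTGES, GREB1, CCND1 and STC2 were highest in abemaciclib and at or near their lowest in the combination, E2F1, HELLS, TOP2A and PLK1 stepped down in both drug arms and reached their lowest in the combination, and NDRG1, ERBB2 and CDKN1A were higher in the combination than in abemaciclib.

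At the entry to the cell cycle, fulvestrant lowered both the cyclin that activates CDK4 and CDK6 and the E2F genes downstream of Rb. CCND1, which encodes cyclin D1, was at 1359.9, 1289 and 1332 CPM in abemaciclib and 244, 237 and 215 CPM in the combination, a log2 fold change of -2.52 ± 0.08 (adjusted p = 8.4e-20). The DMSO mean was 617 ± 5.64 CPM (SD, n = 3), between the means of the groups compared. E2F1, an activating E2F and a target of its own family, went from 36, 32 and 38.2 CPM to 5.77, 3.72 and 5.24 CPM, with a change of -2.85 ± 0.16 (adjusted p = 1.3e-13). E2F3 fell less, from 149, 151 and 142 CPM to 92.6, 85.8 and 93 CPM. Of 16 tested genes of G1 cyclins, their kinases and E2F, 9 fell and none rose. CDK4, the target of abemaciclib, was at 123, 113 and 129 CPM and 116, 109.8 and 116 CPM, and its log2 fold change of -0.09 ± 0.10 (adjusted p = 0.5) did not pass the test.

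Among the brakes, the changes were mixed. Of 12 pocket protein and CDK inhibitor genes, 4 rose (33.33%) and 2 fell (16.67%), against 15.9% and 17.7% of all genes. CDKN1A, which encodes the CDK inhibitor p21, was at 46.2, 48.1 and 44.7 CPM in abemaciclib and 119, 111 and 118 CPM in the combination, a log2 fold change of 1.32 ± 0.09 (adjusted p = 1.1e-11). CCNG2, an atypical cyclin linked to arrest and to FOXO factors, rose from 48, 55 and 56.6 CPM to 86.4, 95.9 and 82.1 CPM. Its relative CCNG1, a p53 target, fell from 33.4, 35.8 and 30.8 CPM to 21.2, 17 and 16.5 CPM. RB1, which encodes Rb, overlapped between the groups, at 52, 63.4 and 57.4 CPM and 46, 56.2 and 41.6 CPM, and its change of -0.26 ± 0.21 (adjusted p = 0.36) was not called. CDKN1B, which encodes the inhibitor p27, was also not called, at 0.14 ± 0.11.

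The cell cycle genes downstream fell together. Of 197 tested genes in 9 lists covering G1 to mitosis and homologous recombination, 167 fell and none rose, with a median log2 fold change of -2.17. The fall was not even along the cycle. For 76 genes of S phase entry and DNA replication, 57 fell and the median was -0.94. For 97 genes of mitosis, 91 fell and the median was -3.02. Counting genes at the floor of 3 counts in the combination at their bound instead of their fitted value gave medians of -0.88 and -2.96. The difference between the 2 groups of genes was not tested, since genes are not replicates.

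Short stretches of the promoters show the elements that these groups carry in their sequence. They are from RefSeq on GRCh38.p14, written 5′ to 3′ on the strand of the gene, and cover a match with 30 bases on each side. The first 4 are from mitotic genes that fell, with the CHR letters in capitals, and the last 3 are from genes of S phase entry and replication that fell, with an E2F site in capitals. They are shown because the named genes carry 1 such match each. PLK1 lies at chr16:23678830-23678895 on the plus strand, CCNB2 at chr15:59105087-59105152 on plus, KIF4A at chrX:70290040-70290105 on plus, CDCA8 at chr1:37692463-37692528 on plus, E2F1 at chr20:33686368-33686435 on minus, HELLS at chr10:94545682-94545749 on plus and DTL at chr1:212035710-212035777 on plus.
PLK1: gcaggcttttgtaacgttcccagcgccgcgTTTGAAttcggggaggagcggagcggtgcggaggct
CCNB2: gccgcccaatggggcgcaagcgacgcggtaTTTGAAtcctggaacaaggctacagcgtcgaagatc
KIF4A: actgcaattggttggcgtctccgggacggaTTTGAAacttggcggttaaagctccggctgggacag
CDCA8: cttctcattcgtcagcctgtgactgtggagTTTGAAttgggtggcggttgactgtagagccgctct
E2F1: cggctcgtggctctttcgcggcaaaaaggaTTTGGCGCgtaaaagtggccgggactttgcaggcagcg
HELLS: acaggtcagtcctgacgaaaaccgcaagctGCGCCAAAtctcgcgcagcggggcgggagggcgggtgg
DTL: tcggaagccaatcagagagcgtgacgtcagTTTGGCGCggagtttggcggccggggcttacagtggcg

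Promoters were searched from 250 bases before to 50 bases after the start, on both strands, for TTTGAA (CHR), TTTGGCGC or TTTCGCGC (E2F) and CCAAT, which binds NF-Y. CHR was present in 56.2% of the 105 promoters matched to mitosis genes, in 7.95% of the 88 promoters matched to S phase genes and in 15.2% of all 35116 promoters. The E2F site went the other way, at 5.71% of the mitosis promoters, 23.9% of the S phase promoters and 1.15% of all promoters. CCAAT was found in 62.9%, 51.1% and 34.6%. Promoters were found for 80 of the 97 mitosis genes and 65 of the 76 S phase genes. Over the 2427 promoters of all genes that fell, CHR stood at 12.2%, the E2F site at 2.64% and CCAAT at 38.4%. Over the 13341 promoters of all genes tested, the shares were 10.1%, 1.9% and 35.5%. Only 78.1% of the genes tested had a promoter, under 80%, so these shares serve only as a background. The full ER element, GGTCANNNTGACC, was in none of the 2427 promoters of genes that fell. It was in only 20 of all 35116 promoters (0.057%) and in 2 of the 13341 promoters of genes tested. At that rarity its absence from the genes that fell cannot be read as a result. Fewer than 80% of the ER target genes (71.7%) had a promoter in the table, so the search was void for that list. A match describes letters in this window, not a bound site.

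Genes of origin licensing and the MCM helicase fell in 19 of 22 cases, with a median of -1.44. ORC6, a subunit of the origin recognition complex, went from 18.8, 19.4 and 19.7 CPM to 1.92, 2.48 and 2.14 CPM, a log2 fold change of -3.12 ± 0.23 (adjusted p = 1.5e-11). GINS4, part of the helicase that opens replication origins, went from 33.6, 31.3 and 30.8 CPM to 4.57, 4.14 and 5.44 CPM, a change of -2.75 ± 0.18 (adjusted p = 2.6e-12). Neither gene had an abemaciclib library near a combination library. Of 29 replication fork genes, 23 fell, with a median of -0.77. ASF1B, a histone chaperone, fell furthest among them, from 31.2, 34.7 and 33.4 CPM to 2.41, 2.07 and 1.36 CPM. HELLS, a chromatin remodeller whose E2F site is among the sequences shown, went from 45.8, 51.4 and 58.4 CPM to 14.9, 15.1 and 16.7 CPM, a change of -1.73 ± 0.12 (adjusted p = 3.6e-12). CHAF1A, a subunit of the chromatin assembly factor, went from 41.2, 49 and 45.5 CPM to 20.9, 17.6 and 19.2 CPM.

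Some replication genes were not called. PRIM1, the catalytic primase subunit, was at 5.6, 5.74 and 4.8 CPM in abemaciclib and 5.77, 5.79 and 5.83 CPM in the combination, and its log2 fold change of 0.10 ± 0.27 (adjusted p = 0.81) did not pass the test. POLD1 and POLA1, catalytic subunits of replicative polymerases that were named after their values were seen, were at 0.15 ± 0.37 and -0.30 ± 0.15 and also were not called. Of 9 genes of deoxynucleotide synthesis, 6 fell and none rose, with a median of -0.37. The list was uneven, with 3 falls of at least 2-fold, a 25th percentile of -3.70 and a lowest fitted value of -8.76. In 2 of its genes every combination library had at most 3 counts. The gene given next was not among the 3 deepest falls. DCTPP1, which removes non-canonical nucleotides from the pool, went from 117, 127 and 118 CPM to 72.7, 71.3 and 68.2 CPM, a change of -0.77 ± 0.09 (adjusted p = 1.1e-07). DTL, an adaptor that targets the licensing factor CDT1 for destruction, is in no list but was among the 12 largest falls outside them, from 13, 14.6 and 14.9 CPM to 0.722, 1.03 and 0 CPM, with a change of -4.57 ± 0.34 (adjusted p = 2.9e-11).

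Mitotic genes fell closer to the limit of detection. Of 23 mitotic drivers, 21 fell (median -3.22), of 29 kinetochore and centromere genes, 27 fell (median -3.02), of 25 spindle and cytokinesis genes, 24 fell (median -3.47), and of 20 genes of chromosome structure and mitotic exit, 19 fell (median -2.38). PLK1, the kinase that drives mitotic entry and spindle assembly, was at 29.8, 31.1 and 36.9 CPM in abemaciclib and 0.481, 0.62 and 0.971 CPM in the combination, a log2 fold change of -5.47 ± 0.26 (adjusted p = 2.5e-15). CCNB2, a cyclin of CDK1, went from 36.2, 37.1 and 33.6 CPM to 0.722, 1.65 and 0.971 CPM, a change of -4.95 ± 0.22 (adjusted p = 2.8e-16). In both, no combination library came near an abemaciclib library. MYBL2, a transcription factor that activates late cell cycle genes, went from 88.4, 85.2 and 79.3 CPM to 0.241, 0 and 0 CPM, and with at most 3 counts in every combination library it was at least 131-fold lower. BIRC5, which encodes survivin of the chromosomal passenger complex, went from 42.8, 39.1 and 40.7 CPM to 0.481, 0.827 and 1.36 CPM. CDCA8, the borealin subunit of the same complex, kept more transcript, at 2.89, 2.07 and 4.85 CPM against 39, 41.3 and 34.6 CPM.

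KIF4A, a chromosome-bound kinesin, had at most 3 counts in every combination library, so that it was at least 42.9-fold lower than its 29.4, 23.6 and 29.6 CPM in abemaciclib. TPX2, which activates Aurora A on the spindle, went from 89.2, 88.3 and 77.6 CPM to 15.2, 12 and 12 CPM, a log2 fold change of -2.71 ± 0.12 (adjusted p = 3e-16). TOP2A, the topoisomerase that separates sister chromatids, was the most abundant of these, at 360.3, 359 and 399.7 CPM in abemaciclib, and fell to 14.4, 16.7 and 10.9 CPM, a change of -4.74 ± 0.12 (adjusted p = 1.9e-20). PTTG1, which encodes securin, went from 54.4, 58.3 and 61.7 CPM to 0.722, 1.24 and 1.94 CPM. Genes of mitosis outside the lists were also among the largest falls. SHCBP1, which acts at the midbody, was at least 32.6-fold lower, PRR11 went from 41.8, 40.0 and 42.5 CPM to 0.962, 0.62 and 1.36 CPM, and TACC3, a spindle protein, went from 48.8, 56.5 and 52.1 CPM to 1.44, 0.62 and 2.33 CPM.

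**Figure D2:**
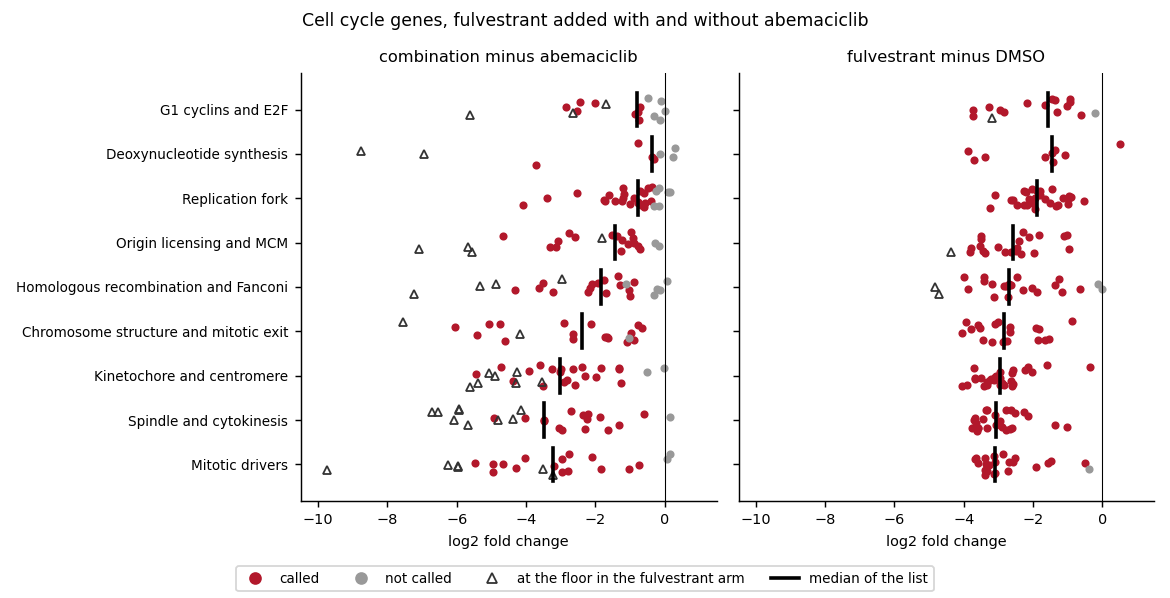
Log2 fold change of each member of the 9 cell cycle lists, 1 point per gene, for the combination minus abemaciclib on the left and for fulvestrant minus DMSO on the right. Red points passed the test, grey points did not, triangles had at most 3 counts in every library of the fulvestrant arm, and bars are list medians. With abemaciclib the median was -0.77 for replication fork genes and -3.47 for spindle and cytokinesis genes, and without it -1.88 and -3.06.

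Repair genes of homologous recombination and the Fanconi pathway, which act on replicated DNA, fell in 19 of 24 cases with a median of -1.84, and none rose. BRCA1 went from 32.4, 28 and 26.3 CPM to 6.01, 7.86 and 6.21 CPM, a log2 fold change of -2.11 ± 0.17 (adjusted p = 7.2e-11). BRCA2, which acts in the repair of double-strand breaks, fell further, from 23, 21.6 and 25.3 CPM to 0.481, 1.86 and 0.971 CPM, a change of -4.33 ± 0.31 (adjusted p = 2.9e-11). FANCD2 and FANCI form the clamp that marks crosslinked DNA. FANCD2 went from 32.8, 34.2 and 36.4 CPM to 9.38, 6.82 and 6.41 CPM and FANCI from 29.4, 33.6 and 28.6 CPM to 3.61, 2.48 and 3.69 CPM. In these 4 genes the groups did not overlap. This list is itself counted among the cell cycle lists, and the share of cycling cells was not measured.

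Genes with large rises at 10 CPM or more in the combination are given first. SIGLEC15, a sialic acid receptor, was at 7, 5.52 and 3.79 CPM in abemaciclib and 47.2, 59.1 and 61.6 CPM in the combination, a log2 fold change of 3.33 ± 0.17 (adjusted p = 1e-14). COLEC12, a scavenger receptor, went from 2.2, 2.21 and 2.78 CPM to 16.8, 15.5 and 15 CPM, a change of 2.71 ± 0.25 (adjusted p = 2.3e-09). XDH, xanthine dehydrogenase of purine breakdown, went from 3.8, 2.65 and 2.78 CPM to 16.1, 15.3 and 12.2 CPM. All of these were scarce in abemaciclib, and their combination libraries stood well above. An abundant gene rose as well. NDRG1, a gene induced by hypoxia and by androgen, went from 219, 200.4 and 191 CPM to 872, 851 and 934 CPM, a change of 2.12 ± 0.09 (adjusted p = 8.3e-17). PSCA, a GPI-anchored surface antigen, went from 4.2, 4.41 and 1.26 CPM to 9.86, 15.7 and 13.6 CPM, with 1 abemaciclib library below the others.

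Members of the prolactin and STAT5 pathway moved both ways, with the share that fell near that of all genes. Of 11 tested, 4 rose (36.36%) and 2 fell (18.18%), against 15.9% and 17.7% of all genes. SOCS2, an inhibitor of growth hormone and prolactin signalling, went from 9.6, 9.49 and 8.59 CPM to 43.3, 52.5 and 36.3 CPM, a log2 fold change of 2.25 ± 0.17 (adjusted p = 2.4e-11). The growth hormone receptor gene GHR rose from 55, 43.9 and 55.3 CPM to 92.6, 107 and 105 CPM, and the prolactin receptor gene PRLR from 151, 151 and 163 CPM to 202, 202 and 183 CPM. SOCS3, the inhibitor induced by STAT3, fell from 52, 60.3 and 61.7 CPM to 21.2, 22.3 and 21.9 CPM, a change of -1.41 ± 0.14 (adjusted p = 1.1e-08), and its DMSO mean was 20.2 ± 4.24 CPM (SD, n = 3).

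Receptors of the ERBB family rose, and genes for 2 of their ligands fell. Of 10 tested genes, 4 rose (40%) and 2 fell (20%), against 15.9% and 17.7% of all genes. ERBB2, the gene for HER2, was at 114, 125 and 126 CPM in abemaciclib and 289, 283 and 271 CPM in the combination, a log2 fold change of 1.21 ± 0.10 (adjusted p = 3.3e-10). Its partner ERBB3 rose from 255, 250.3 and 283 CPM to 403, 438 and 383 CPM, a change of 0.64 ± 0.08 (adjusted p = 5.7e-07). The groups did not overlap for either. ERRFI1 and LRIG1, inhibitors of the family that were named after their values were seen, were not called, at 0.18 ± 0.16 and -0.12 ± 0.16. The 2 that fell were ligand genes, AREG from 40.2, 32.7 and 36.9 CPM to 31, 24.8 and 23.9 CPM, a change of -0.47 ± 0.14 (adjusted p = 0.0095), and HBEGF from 9.4, 11.5 and 10.9 CPM to 6.26, 7.65 and 2.33 CPM, a change of -0.98 ± 0.34 (adjusted p = 0.031). The call of AREG was lost without abemaciclib replicate 1 (-0.39) or combination replicate 3 (-0.40), and that of HBEGF without abemaciclib replicate 2 (-0.91) or 3 (-0.96) or combination replicate 3 (-0.59). The ligand genes TGFA and BTC, also named after their values were seen, were at -0.12 ± 0.29 and -0.02 ± 0.36 and were not called. EGFR itself was too scarce to be tested.

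Targets of FOXO factors, which are active when PI3K and AKT signalling is low, rose in 12 of 19 cases with none falling, and their median was 0.45. PIK3IP1, an inhibitor of PI3K, went from 25.6, 26.7 and 26.8 CPM to 54.4, 67 and 61.6 CPM, a log2 fold change of 1.21 ± 0.13 (adjusted p = 1.6e-08). TXNIP, an inhibitor of glucose uptake, rose from 349, 398 and 377 CPM to 718, 759 and 745 CPM, a change of 0.98 ± 0.10 (adjusted p = 1e-07). YPEL3, linked to growth arrest, went from 47.2, 41.5 and 35.9 CPM to 82.8, 76.1 and 85.6 CPM, and TRIB1, a pseudokinase, from 19.4, 21.2 and 18.7 CPM to 37.3, 38.7 and 42.9 CPM. FOXO1 was not called, at 0.30 ± 0.23.

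The BCL2 family, which sets the threshold for apoptosis, shifted in 9 of 13 tested genes, 7 higher (53.85%) and 2 lower (15.38%). The BH3-only killer genes BBC3 (PUMA) and BMF rose. BBC3 went from 134, 140.4 and 132 CPM to 254, 307 and 309 CPM, a log2 fold change of 1.10 ± 0.10 (adjusted p = 8.7e-10), and BMF from 7.4, 12.4 and 9.85 CPM to 37.1, 33.7 and 34.8 CPM, a change of 1.84 ± 0.17 (adjusted p = 2.3e-09). BID, another BH3-only member, fell from 64.8, 58.5 and 50.3 CPM to 24.3, 29.6 and 30.7 CPM. On the survival side BCL2L1, which encodes BCL-XL, rose from 68.2, 66 and 56.9 CPM to 104, 87.5 and 86.4 CPM, a change of 0.53 ± 0.12 (adjusted p = 0.00099). The list thus held rises on both sides. Of 16 p53 target genes, 5 rose (31.25%) and 3 fell (18.75%), against 15.9% and 17.7% of all genes. TP53INP1 rose from 35, 39.5 and 39.7 CPM to 79.4, 82.9 and 79.6 CPM, while MDM2, the negative regulator of p53, was not called, at -0.21 ± 0.09.

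BMP and TGF-beta response genes rose in 7 of 16 cases (43.75%) and fell in 3 (18.75%), against 15.9% and 17.7% of all genes. ID2, an inhibitor of basic helix-loop-helix factors, went from 256, 220.1 and 239 CPM to 605, 679 and 712 CPM, a log2 fold change of 1.48 ± 0.09 (adjusted p = 1.3e-13). ID1 rose from 130.1, 124 and 128 CPM to 166, 218 and 204 CPM. The ligand BMP4 rose from 78.6, 71.5 and 61.9 CPM to 160.5, 139.8 and 155 CPM, a change of 1.10 ± 0.12 (adjusted p = 9.3e-08), and BAMBI, a decoy receptor, rose by 1.14 ± 0.21. SKIL, a repressor of SMAD signalling, fell from 72, 61.8 and 73.8 CPM to 41.4, 41.8 and 44.9 CPM. BMP7, another ligand, fell from 11, 11 and 8.59 CPM to 3.85, 5.17 and 4.08 CPM. The 2 BMP ligands thus moved in opposite directions.

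Of 18 immediate early and MAPK feedback genes, 5 rose (27.78%) and 4 fell (22.22%), against 15.9% and 17.7% of all genes. IER3, an immediate early gene, fell from 1212, 1116 and 1208 CPM to 583, 644 and 664 CPM, a log2 fold change of -0.90 ± 0.08 (adjusted p = 1.2e-09). FOSL2, an AP-1 subunit, rose from 34.4, 38.4 and 36.1 CPM to 63.3, 59.5 and 58.1 CPM. MYC fell from 17.6, 21 and 20.7 CPM to 2.89, 7.03 and 4.08 CPM, a change of -2.05 ± 0.45 (adjusted p = 0.0053). MXD4, which competes with MYC for its partner MAX, rose from 128, 141 and 149 CPM to 234, 225 and 228 CPM, a change of 0.72 ± 0.08 (adjusted p = 3.6e-08). MAX itself was not called, at 0.03 ± 0.16.

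Only 9 of 20 androgen response genes were abundant enough to test, of which 5 rose and 3 fell. ZBTB16, a transcription factor induced by steroid receptors, rose from 4.2, 5.52 and 3.54 CPM to 10.1, 13.9 and 13 CPM. SEC14L2, a lipid transfer protein, fell from 104, 77.3 and 100.1 CPM to 12, 14.1 and 13.4 CPM, a log2 fold change of -2.83 ± 0.14 (adjusted p = 2.5e-15), and PMEPA1, a ubiquitin ligase adaptor, from 164, 162 and 157 CPM to 102, 95.1 and 82.1 CPM. Of 15 hypoxia response genes, 6 rose (40%) and 3 fell (20%), against 15.9% and 17.7% of all genes. VEGFA, the angiogenic growth factor, rose from 38, 40.2 and 47.2 CPM to 95.8, 107 and 90.5 CPM, a change of 1.23 ± 0.11 (adjusted p = 1e-09). EGLN3, an oxygen sensor, rose by 1.55 ± 0.25, and CA12, a carbonic anhydrase and ER target, fell by 0.92 ± 0.07 on the same scale.

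**Figure D3:**
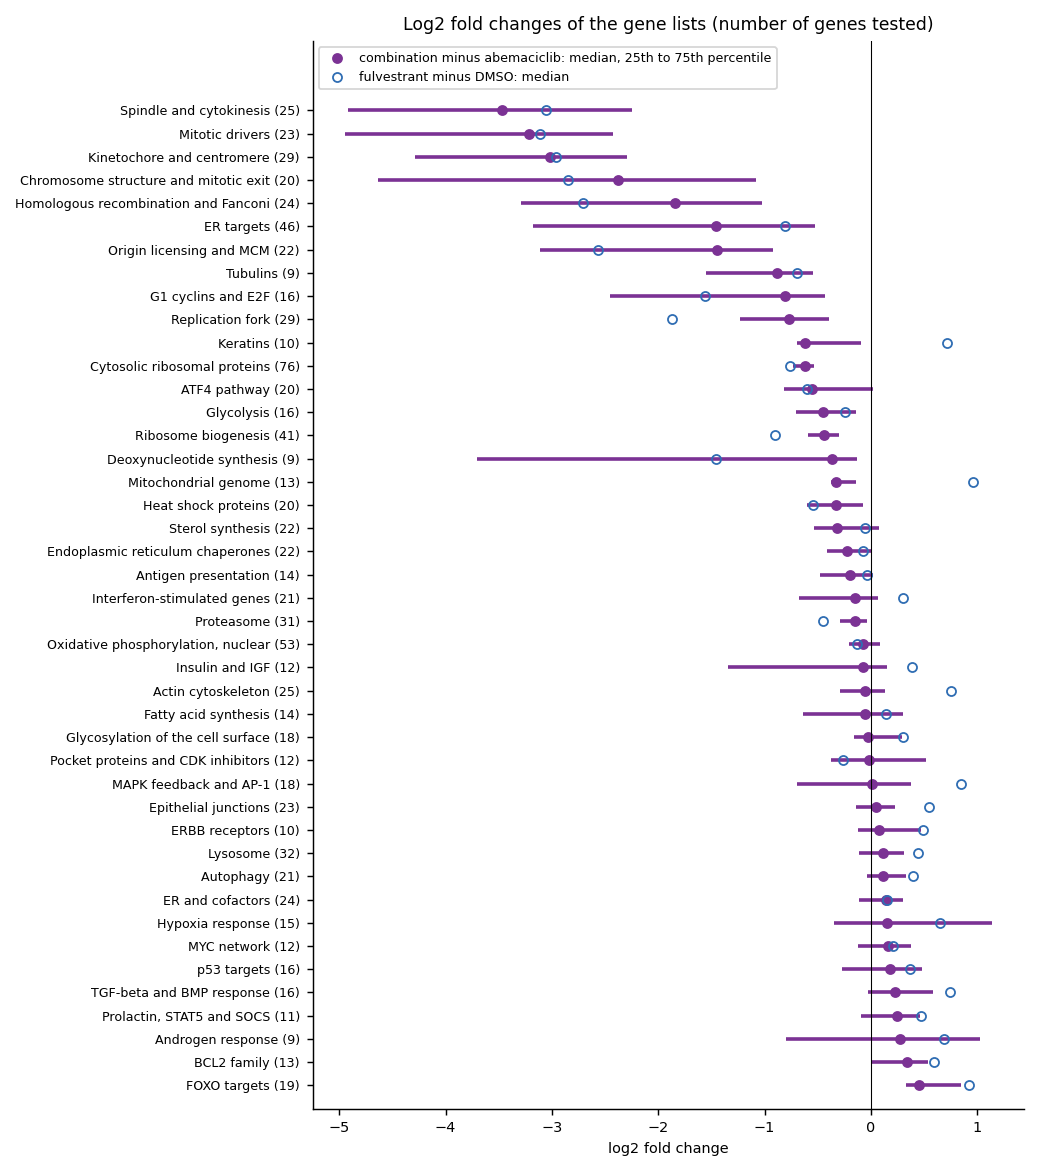
Median log2 fold change of each of the 43 gene lists for the combination minus abemaciclib (filled points), with bars from the 25th to the 75th percentile of its genes, and the median for fulvestrant minus DMSO (open circles). The mitosis lists lie furthest to the left, with medians from -2.38 to -3.47, and FOXO targets lie furthest to the right at 0.45, while keratins and the mitochondrial genome are below 0 with abemaciclib and above 0 without it.

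The machinery of protein synthesis fell broadly and by less than the cell cycle genes. Of 76 cytosolic ribosomal protein genes, 72 fell and none rose, with a median of -0.62. RPS2 was at 881, 883 and 821 CPM in abemaciclib and 387, 359 and 375 CPM in the combination, a log2 fold change of -1.21 ± 0.08 (adjusted p = 7e-13). RPS19 went from 1437, 1451 and 1365 CPM to 778, 735 and 749.5 CPM and RPLP0 from 737, 737 and 722 CPM to 356, 370.3 and 410.3 CPM. Each of these changes exceeded the spread, and the libraries of a group lay close together. Ribosomal protein genes have many pseudogene copies, so their single values are uncertain where reads could be shared. Of 41 genes of ribosome biogenesis, 29 fell and 1 rose. NPM1, the nucleolar chaperone nucleophosmin, fell from 637, 641 and 673 CPM to 384, 362 and 383 CPM, a change of -0.79 ± 0.07 (adjusted p = 5e-10). LYAR and NOP16, nucleolar proteins of ribosome assembly, changed by -1.27 ± 0.11 and -1.16 ± 0.11 on the log2 scale. The gene that rose was UBTF, a factor of ribosomal RNA transcription named after its value was seen, from 69.2, 64.7 and 73.3 CPM to 94.1, 93 and 89.7 CPM.

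Genes of the ATF4 pathway, which supplies amino acids, fell in 13 of 20 cases and rose in 2, with a median of -0.56. SLC1A5, a glutamine transporter, went from 81, 75.3 and 71.3 CPM to 34.9, 31 and 25 CPM, a log2 fold change of -1.33 ± 0.11 (adjusted p = 2.8e-10). PYCR1, of proline synthesis, went from 205, 190.5 and 188 CPM to 110.0, 104 and 130.1 CPM. ATF4 itself was not called, at 0.02 ± 0.10, and DDIT4, an inhibitor of mTORC1, rose from 47.6, 37.7 and 42.2 CPM to 70.5, 83.9 and 88.5 CPM. Of 20 heat shock genes, 12 fell and 1 rose. The mitochondrial chaperonin gene HSPD1 went from 246, 231 and 233 CPM to 116, 123 and 118 CPM, and BAG3, a cochaperone of HSP70, from 208, 224 and 216 CPM to 96.5, 97.8 and 76.3 CPM, a change of -1.26 ± 0.11 (adjusted p = 1.6e-08). HSPB1, the small heat shock protein HSP27 and among the most abundant transcripts, lost more CPM than any other called gene, from 6993, 6370.4 and 7079.7 CPM to 4631, 4278 and 4172 CPM. HSP90AB1 fell from 4791, 4769.6 and 4753 CPM to 3544, 3538 and 3546 CPM with almost no spread within the groups.

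In the endoplasmic reticulum, 10 of 22 chaperone and secretory genes fell and 2 rose. HERPUD1, which takes part in disposal of misfolded proteins, rose from 135, 155 and 152 CPM to 303, 348 and 288 CPM, a log2 fold change of 1.09 ± 0.09 (adjusted p = 2.5e-10), and SEL1L of the same disposal route rose by 0.43 ± 0.09. The chaperones CALR and CANX changed by -0.46 ± 0.08 and -0.32 ± 0.08. Of 31 proteasome genes, 8 fell (25.81%, against 17.7% of all genes) and none rose.

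All 9 tested tubulin genes fell, with a median of -0.88. TUBA1B, the main alpha tubulin, went from 1418, 1528 and 1395 CPM to 467, 481 and 535 CPM, a log2 fold change of -1.55 ± 0.12 (adjusted p = 2.1e-08), and TUBB from 3066, 3103 and 2996 CPM to 1794, 1812 and 2094 CPM, a change of -0.69 ± 0.15 (adjusted p = 0.0058). Tubulin genes are near-identical in sequence, so reads could be split between them. Of 16 glycolysis genes, 8 fell and none rose. SLC2A1, the glucose transporter GLUT1, went from 173, 158 and 180.4 CPM to 51.2, 51.7 and 48.9 CPM, a change of -1.75 ± 0.09 (adjusted p = 2.8e-14), and GAPDH from 433, 404 and 407 CPM to 280.3, 243 and 239 CPM. Of 22 sterol synthesis genes, 11 fell and 1 rose. INSIG1, which holds back the sterol-sensing transcription factor SREBP, fell from 40.0, 41.3 and 38.9 CPM to 25.3, 22.3 and 21.4 CPM. SCD, the desaturase of fatty acid synthesis, fell from 245, 266 and 245 CPM to 144, 141 and 141 CPM, in a list of 14 in which 6 fell and 4 rose. Of 53 nuclear genes of oxidative phosphorylation, 11 fell (20.75%, near the background of 17.7%) and 2 rose.

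Some keratins fell and some junction genes rose. KRT8, which pairs with KRT18 in luminal cells, went from 354, 418 and 368 CPM to 232, 191 and 186 CPM, a log2 fold change of -0.90 ± 0.11 (adjusted p = 2.4e-06). KRT81, a hair keratin found in some breast lines, went from 12.6, 16.6 and 15.2 CPM to 0, 0.207 and 2.14 CPM. Of 10 keratins tested, 4 fell and none rose, with a median of -0.62. That median was -0.17 with 10 counts required in every library, -0.31 without a filter and -0.38 without abemaciclib replicate 1. EPCAM, the epithelial adhesion molecule, rose from 238, 255 and 235 CPM to 362, 366 and 331 CPM, and CLDN3, a tight junction protein, from 521, 461 and 506 CPM to 715, 749.7 and 851 CPM, a change of 0.64 ± 0.09 (adjusted p = 9.1e-06). CLDN1 moved the other way at a low level, from 2.8, 3.31 and 4.55 CPM to 0.962, 0.207 and 1.36 CPM. Of 23 junction genes, 5 rose (21.74%) and 2 fell (8.696%), shares near or below those over all genes. S100A14, an epithelial calcium-binding protein, fell from 3254, 3208 and 3308 CPM to 1964, 2007 and 1966 CPM, a change of -0.72 ± 0.08 (adjusted p = 2.5e-08). SOX4, a transcription factor, gained more CPM than any other called gene, from 2352, 2133 and 2299 CPM to 3951, 3798 and 3769 CPM. CLU, the secreted chaperone clusterin, rose by 0.62 ± 0.08 on the log2 scale.

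Of 25 actin cytoskeleton genes, 7 fell (28%) and 3 rose (12%), against 17.7% and 15.9% of all genes. MYL9, a myosin light chain, fell from 227, 195 and 186 CPM to 132, 111 and 118 CPM, and LIMA1, an actin-bundling protein, rose from 113, 132 and 112 CPM to 191, 191 and 175 CPM. Of 18 glycosylation genes, 4 rose and 3 fell (22.22% and 16.67%), near the shares over all genes. ST6GAL1, which adds sialic acid to cell surface glycans, rose from 23.8, 26.5 and 32.8 CPM to 65.9, 74.8 and 63.3 CPM, a log2 fold change of 1.30 ± 0.14 (adjusted p = 1.7e-08).

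Genes of antigen presentation fell in 6 of 14 cases and none rose. HLA-B was at 176, 186 and 192 CPM in abemaciclib and 104, 94.7 and 94.6 CPM in the combination, a log2 fold change of -0.92 ± 0.08 (adjusted p = 8.3e-10). HLA-F, a less abundant class I gene, went from 6.6, 7.28 and 11.9 CPM to 1.2, 1.03 and 0.971 CPM. The light chain gene B2M and the transporter gene TAP1 were not called, at 0.01 ± 0.09 and 0.04 ± 0.15. Class I heavy chain genes resemble each other, so their counts are uncertain where reads could be shared. Of 21 interferon-stimulated genes tested, 5 fell (23.81%) and 1 rose (4.762%), against 17.7% and 15.9% of all genes. OAS3, a sensor of double-stranded RNA, went from 11.6, 12.6 and 11.6 CPM to 3.13, 2.69 and 2.33 CPM, a change of -2.14 ± 0.23 (adjusted p = 3e-08), and BST2 (tetherin) from 140.1, 135 and 134 CPM to 85.2, 85.6 and 84.7 CPM.

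Of 32 lysosomal genes, 9 rose (28.12%) and 3 fell (9.375%), against 15.9% and 17.7% of all genes. TFEB, the transcription factor of lysosome genes, rose from 5.4, 3.31 and 6.82 CPM to 11.8, 14.5 and 11.8 CPM, a log2 fold change of 1.30 ± 0.26 (adjusted p = 0.00023). CTSD, the protease cathepsin D and a gene also induced by oestrogen, fell from 410.2, 417 and 388 CPM to 277, 268 and 262 CPM. Of 21 autophagy genes, 4 rose (19.05%) and 1 fell (4.762%), which is near or below the background. The 1 that fell was WIPI1, which acts in autophagosome formation and was named after its value was seen, from 52.6, 52.5 and 49.8 CPM to 26, 19.2 and 22.3 CPM, a change of -1.20 ± 0.14 (adjusted p = 6.6e-08).

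The same drug was then compared in cells without abemaciclib, to ask which of these changes also occurred without CDK4/6 inhibition. Fulvestrant minus DMSO uses none of the 6 libraries compared so far. It changed 6023 genes (51%), 2988 higher (25.3%) and 3035 lower (25.7%), and 6109 without replicate 3 of fulvestrant. Of the 3959 genes changed with abemaciclib, 2728 (68.91%) were changed in the same direction without it, which is 45.29% of the changes seen without it. Of these shared changes 1437 were falls and 1291 were rises. Across the 11803 genes the log2 fold changes of the 2 comparisons had a Pearson r of 0.69, and of 0.65 over the 11606 genes outside the cell cycle lists, given as a description since genes are not independent.

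Whether the effect of fulvestrant itself differed was tested as the difference of the 2 log2 fold changes, with minus without abemaciclib, in the same edgeR model. It differed for 2493 genes (21.1%), with a positive difference for 1120 (9.49%) and a negative one for 1373 (11.6%). Without replicate 3 of fulvestrant it differed for 3318 genes. Among the 2728 shared changes it was smaller with abemaciclib for 605 genes and larger for 102. A further 1059 genes were changed only with abemaciclib present by the threshold, but the difference itself passed the test for only 321 of them. Among the 540 of these that fell, the abemaciclib group had the highest of the 4 group means for 498. A fall here already places abemaciclib above the combination, and no share over all genes was computed, so this is a description only.

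**Figure D4:**
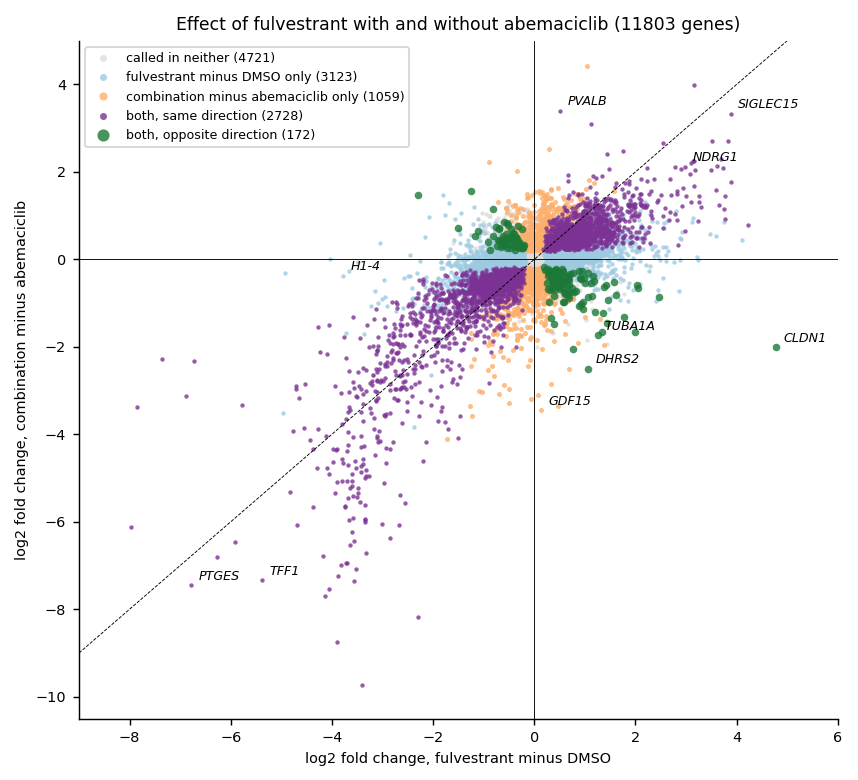
Log2 fold change of each of the 11803 genes for fulvestrant minus DMSO (horizontal axis) and for the combination minus abemaciclib (vertical axis), coloured by which of the comparisons passed the test. Most genes changed in both lie along the diagonal (2728 in the same direction), and 172 lie in the quadrants where the directions are opposite.

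Cell cycle genes fell without abemaciclib as well. Without abemaciclib, 74 of the 76 S phase genes fell with a median of -2.03, and 96 of the 97 mitosis genes fell with a median of -3.01. The difference was positive, meaning a smaller fall with abemaciclib, for 37 S phase genes (48.68%) and negative for 5 (6.579%). It was positive for 15 mitosis genes (15.46%), negative for 21 (21.65%) and not called for 61. Over all genes the difference was positive for 9.49% and negative for 11.6%. PRIM1, not called with abemaciclib, went from 23.2, 29.3 and 22.3 CPM in DMSO to 5.44, 5.92 and 2.51 CPM in fulvestrant, and its difference was 2.56 ± 0.36 (adjusted p = 8.4e-06). Its abemaciclib libraries were already at 5.6, 5.74 and 4.8 CPM. TOP2A changed by -3.43 ± 0.10 on the log2 scale without abemaciclib and by -4.74 ± 0.12 with it, a difference of -1.30 ± 0.15 (adjusted p = 8e-07). UBE2C, which drives cyclin destruction at mitotic exit, went from 115, 138 and 156 CPM to 18.5, 19.2 and 13.7 CPM without abemaciclib and from 40.8, 40.4 and 37.4 CPM to 0, 0.414 and 1.17 CPM with it, a difference of -3.05 ± 0.45 (adjusted p = 2.7e-05). KIF15, a spindle motor, went against these, with a change of -3.58 ± 0.30 without and -1.33 ± 0.34 with abemaciclib and a difference of 2.25 ± 0.50 (adjusted p = 0.0019).

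Histone transcripts were among the largest positive differences. H4C3, a histone H4 gene of S phase, went from 1278, 1027 and 809 CPM in DMSO to 99.6, 109.7 and 184 CPM in fulvestrant, a change of -2.98 ± 0.27 (adjusted p = 1.9e-05). Its abemaciclib libraries stood at 89.6, 77 and 103 CPM and its combination libraries at 78.2, 58.3 and 57.3 CPM, which overlapped. The difference was 2.50 ± 0.39 (adjusted p = 0.0024). H1-4, a linker histone, fell from 24.9, 19 and 19.2 CPM to 1.73, 0.564 and 2.05 CPM without abemaciclib and was near the floor in both groups with it, at 1.4, 0.883 and 1.01 CPM and 0.722, 1.24 and 0.583 CPM, a difference of 3.40 ± 0.71 (adjusted p = 0.00091). Most histone transcripts carry no poly(A) tail and histone genes resemble each other, so these counts are uncertain.

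For part of the ER target list the difference was negative. It was called negative for 17 of the 46 genes tested (36.96%), positive for 4 (8.696%) and not called for 25. Over all genes the shares were 11.6% and 9.49%. Of the 46 tested, 28 fell and 8 rose without abemaciclib, against 38 and 2 with it, and the median was -0.81 without and -1.46 with it. STC2 went from 91.4, 113 and 118 CPM in DMSO to 42.2, 38.4 and 37.1 CPM in fulvestrant, a change of -1.46 ± 0.12 against -3.58 ± 0.12 with abemaciclib, and the difference was -2.12 ± 0.17 (adjusted p = 6.3e-09). Without fulvestrant the means were 107 ± 14.1 CPM in DMSO and 385 ± 48.3 CPM in abemaciclib, and with it 39.3 ± 2.67 and 31.9 ± 5.16 CPM (SD, n = 3). KCNK15, a potassium channel gene in the ER target list, was at 1.78, 2.28 and 1.65 CPM in DMSO and 3.21, 1.13 and 1.14 CPM in fulvestrant, but at 13.8, 12.4 and 12.9 CPM in abemaciclib and 0.962, 1.24 and 1.94 CPM in the combination. Its difference was -3.11 ± 0.59 (adjusted p = 0.00034). Differences were not called for GREB1, at 0.07 ± 0.22 (adjusted p = 0.88), for PGR, at 0.72 ± 0.58 (adjusted p = 0.41), or for ELOVL2, at 0.36 ± 0.17 (adjusted p = 0.14).

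CDKN1A and ERBB2 rose in both settings and rose less with abemaciclib. CDKN1A went from 13.9, 16.7 and 15.1 CPM to 132, 142 and 122 CPM without abemaciclib, a change of 3.10 ± 0.11 against 1.32 ± 0.09 with it, and the difference was -1.78 ± 0.15 (adjusted p = 2.1e-09). ERBB2 went from 41, 54.9 and 64.1 CPM to 262, 229 and 244 CPM, and its difference was -0.98 ± 0.14 (adjusted p = 2e-05). In both genes the abemaciclib libraries lay between DMSO and the fulvestrant-treated libraries.

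The 172 genes that moved in opposite directions all passed the test of the difference. Being called in opposite directions already makes the difference large, so this count adds no separate support. Of the 172 genes, 111 fell with abemaciclib and rose without it, and for 108 of them abemaciclib had the highest of the 4 group means. The other 61 rose with abemaciclib and fell without it, and for 58 of them abemaciclib had the lowest mean. In both sets the directions left only abemaciclib or fulvestrant to hold that extreme, so these counts are descriptions. OLFML3, a secreted matrix protein, was at 23.4, 21.5 and 25.8 CPM in DMSO and 59.5, 69.7 and 49.9 CPM in fulvestrant, but at 169, 174 and 145 CPM in abemaciclib and 53.4, 48.2 and 53.4 CPM in the combination. Its log2 fold change was 1.33 ± 0.13 without and -1.66 ± 0.11 with abemaciclib, a difference of -2.99 ± 0.17 (adjusted p = 2.3e-12). TUBA1A, an alpha tubulin, went from 2.67, 4.37 and 5.17 CPM to 10.4, 11.6 and 8.43 CPM and from 37.2, 32 and 35.1 CPM to 10.3, 11.4 and 9.51 CPM in the same order, a difference of -2.99 ± 0.29 (adjusted p = 2.4e-08). BMP7 went from 1.78, 1.14 and 1.65 CPM to 2.47, 4.51 and 4.56 CPM without abemaciclib and had a difference of -2.57 ± 0.47 (adjusted p = 0.0002). SRARP, a steroid receptor-associated protein, went from 3.26, 3.23 and 4.13 CPM to 7.41, 7.05 and 5.93 CPM without abemaciclib and from 14.2, 11.7 and 15.4 CPM to 7.22, 5.79 and 7.38 CPM with it, a difference of -1.94 ± 0.34 (adjusted p = 0.00016).

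Other large negative differences came from genes that abemaciclib-treated libraries held at their highest. GDF15, a stress-induced cytokine, was at 24.2, 26.5 and 31.3 CPM in abemaciclib and 0.962, 4.55 and 1.75 CPM in the combination, against 2.37, 2.66 and 3.51 CPM in DMSO and 2.22, 4.23 and 3.19 CPM in fulvestrant. Its difference was -3.59 ± 0.52 (adjusted p = 1.5e-05). DHRS2, a mitochondrial reductase, was at 37.4, 30.2 and 26.8 CPM and 4.33, 3.93 and 8.16 CPM with abemaciclib and at 2.08, 4.56 and 3.72 CPM and 8.15, 7.9 and 6.84 CPM without it, a difference of -3.57 ± 0.38 (adjusted p = 1.2e-07). RAI2, a transcriptional coregulator, rose without abemaciclib from 0.89, 1.14 and 2.48 CPM to 10.4, 10.4 and 5.47 CPM and fell with it from 16.8, 15.9 and 13.9 CPM to 8.9, 8.89 and 7.96 CPM, a difference of -3.32 ± 0.42 (adjusted p = 1.4e-06).

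PVALB, a calcium-binding protein, was the reverse case. It was at 1.4, 0.221 and 0.505 CPM in abemaciclib and 7.94, 8.48 and 7.77 CPM in the combination, a change of 3.40 ± 0.37 (adjusted p = 4.2e-08), with means of 10.6 ± 1.5 CPM in DMSO and 15.1 ± 1.21 CPM in fulvestrant (SD, n = 3). Its level in the combination lay closer to DMSO than to abemaciclib.

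Negative differences, called for 11.6% of all genes, were counted in the keratins, the actin cytoskeleton genes and the mitochondrially encoded transcripts. Of 10 keratins, 5 rose and 1 fell without abemaciclib, and 8 had a negative difference. KRT8 was at 258, 286 and 261 CPM in DMSO and 251, 331 and 241 CPM in fulvestrant, with a difference of -0.93 ± 0.16 (adjusted p = 0.00024). Of 25 actin cytoskeleton genes, 18 rose without abemaciclib and 18 had a negative difference. Of 13 mitochondrially encoded genes, 11 rose without abemaciclib, 2 fell with it, and 11 had a negative difference. MT-ND3, a subunit of complex I, went from 5723, 6238 and 6684 CPM to 11938, 14909 and 8554 CPM without abemaciclib and from 12829, 14150.0 and 12300.0 CPM to 11242, 8869 and 10292 CPM with it, where its change of -0.37 ± 0.18 (adjusted p = 0.14) was not called, and the difference was -1.29 ± 0.25 (adjusted p = 0.0051). The mitochondrial share of counts was 17.4 to 18.6% in abemaciclib and 15.6 to 19.2% in the combination. HSPB1 rose from 2269, 2666 and 2532 CPM to 3941, 4359.8 and 4226 CPM without abemaciclib, with a difference of -1.39 ± 0.11 (adjusted p = 1e-09), and S100A14 was at 1736, 2086 and 2129 CPM and 2108, 1904 and 1888 CPM, with a difference of -0.71 ± 0.11 (adjusted p = 2.7e-05).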

How the data were processed

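Total RNA from CAMA-1 cultures was made into QuantSeq 3′ FWD libraries. The authors trimmed reads with BBDuk, aligned them to hg38 with STAR, counted them per gene with featureCounts 2.0.1 and deposited raw counts. Strand use in counting and molecular identifiers are not stated, so antisense partners cannot be told apart and floors cover counting error only. Of 60656 rows in the table, 44 without a name held 0 reads, and 1079 rows share 76 names. The 12 libraries held 3299119 to 5164667 counts.

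Counts were fitted in R 4.3.3 with edgeR 4.0.16 (limma 3.58.1), TMM scaling, filterByExpr by group (minimum count 10, minimum total 15) and robust quasi-likelihood tests over all 12 libraries with 4 group means (common biological coefficient of variation 0.0918). Adjusted p values are Benjamini-Hochberg over 11803 genes, threshold 0.05. The groups and comparisons follow the treatment labels. DESeq2 1.42.0, the study's tool, was an alternative, beside other scalings, filters and left-out replicates. The steps were tested on simulated data. Standard errors derive from the F statistic. The study describes the replicates as independent cultures.

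Gene lists (43, with 1030 genes, 902 tested) and the comparison itself were chosen with earlier results of these data known, and list counts carry no test. Named genes are the 12 largest changes each way at 10 CPM or more without overlap (falls outside the cell cycle lists), up to 4 members of each list by adjusted p, ESR1, PGR, GREB1, TFF1, CCND1 and RB1, the 6 largest CPM changes each way among called genes, the 6 largest differences each way among called genes at 10 CPM or more in a group and above 3 counts in a library of each group, and the 6 largest opposite changes at 10 CPM or more. List members named as not called, and others so marked, were chosen after their values were seen. Genes whose call was lost without a single library were counted and not named apart from AREG and HBEGF, and some genes that these rules name are not reported here.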

Additional observations from a re-analysis of the deposited data

Results flagged for a closer look

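The effect of fulvestrant differed with and without abemaciclib for 2493 genes, by the test of the difference itself (edgeR quasi-likelihood, Benjamini-Hochberg adjusted over 11803 genes). Differences are log2 fold changes with abemaciclib minus without, and all named here passed that test.

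Large negative values were -3.59 for GDF15, -3.57 for DHRS2, -3.32 for RAI2, -3.11 for KCNK15 and -3.05 for UBE2C. Large positive values were 3.40 for H1-4, 2.56 for PRIM1, 2.50 for H4C3 and 2.25 for KIF15.

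Among genes that moved in opposite directions the difference was -2.99 for OLFML3, -2.99 for TUBA1A, -2.57 for BMP7 and -1.94 for SRARP. Genes described for other reasons also differed, with -2.12 for STC2, -1.78 for CDKN1A, -1.39 for HSPB1, -1.30 for TOP2A, -1.29 for MT-ND3, -0.98 for ERBB2, -0.93 for KRT8 and -0.71 for S100A14.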

How the results depend on the processing

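Called genes numbered 3959 for the combination minus abemaciclib, 6023 for fulvestrant minus DMSO and 2493 for the difference, and stayed within 1.5 times of that under other scalings, other filters, thinning and without mitochondrial transcripts. DESeq2 gave 3377, 5490 and 2107, and fitting the compared groups alone gave 4622 and 5382. Requiring a 2-fold change gave 985 (308 higher, 677 lower), 2072 (953 and 1119) and 795 (295 and 500). Leaving out 1 replicate at a time gave 3195 to 3437, 5320 to 6109 and 1978 to 3318, the last without replicate 3 of fulvestrant. With the replicate number as a block the counts were 3886, 5978 and 2438, and no call of a gene named here changed. Samples sharing a number did not deviate together (correlations -0.215 to 0.119, 2 of 18 over 0.1). A pair with different numbers, DMSO 1 and fulvestrant 3, reached 0.301. No pairing by number was seen, but 3 libraries per group are too few to exclude one. Recomputed list medians differed from those given by less than 1 SD over the combination libraries in 553 cases, moved further with the same sign in 81 and changed sign in 10, in 5 lists. With 10 counts required in every library, which leaves out the scarcest genes, the medians were -0.7151 for ER targets, -1.832 for mitotic drivers, -2.145 for kinetochore and -2.223 for spindle genes. The androgen response median was -0.1824 without a filter and -0.2703 with 10 counts required in every library, and MAPK feedback was -0.372 without a filter. With 10 counts required, pocket proteins and CDK inhibitors were at 0.09203, insulin and IGF at 0.06363 and hypoxia at -0.2133. Pocket proteins were at 0.05964 with the compared groups alone, and with 1 replicate left out they ranged from -0.0876 to 0.04932 (above 0 without abemaciclib replicate 1 or 3) and hypoxia from -0.2194 (without combination replicate 3) to 0.3458. The uncalled change of PRIM1 was -0.04868 after thinning. Uncalled fulvestrant minus DMSO values changed sign for S100A14 (0.00726 with upper-quartile factors, -0.09282 to 0.04068 with 1 replicate left out), KCNK15 (0.3006 thinned, -0.7408 to 0.2076 with 1 left out), GDF15 (-0.08455 to 0.3487) and KRT8 (-0.1272 to 0.1129). RB1 (-0.2692), H4C3 (-0.4876) and MT-ND3 (-0.3752) were called for the combination minus abemaciclib with the compared groups alone, and MT-ND3 with DESeq2 (-0.3759). The called differences of the 21 genes listed above kept their call under every alternative in which they were tested, except that S100A14, KRT8 and ERBB2 lie under the 2-fold limit. The uncalled difference of GREB1 ranged from -0.0519 to 0.2134 with 1 replicate left out. AREG and HBEGF lost their call without single libraries, as given with their values, and HBEGF also after thinning (-0.8452). The cause of these shifts was not tested. Genes near 3 counts have fitted folds that depth limits.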

Other observations

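Circadian clock genes, a family picked after its values were seen, shifted toward higher levels in the combination than in abemaciclib. Of 16 tested, 9 rose and 2 fell, with a median log2 fold change of 0.62. DBP, a clock output transcription factor, went from 3.2, 4.41 and 4.04 CPM in abemaciclib to 15.4, 14.3 and 15 CPM in the combination, a log2 fold change of 1.94 ± 0.23 (adjusted p = 1.4e-07). NR1D1, which encodes the clock repressor REV-ERB alpha, went from 2.6, 2.87 and 2.78 CPM to 12.8, 9.72 and 8.74 CPM, a change of 1.90 ± 0.29 (adjusted p = 7.4e-06). NR1D2, its paralog, rose by 1.14 ± 0.13, HLF by 1.20 ± 0.13, PER3 by 1.21 ± 0.24 and CRY2 by 0.98 ± 0.20, while BHLHE40, a repressor of the clock, fell by 1.48 ± 0.22. DBP and NR1D1 stood at 10.3 ± 1.23 CPM and 4.12 ± 1.39 CPM in DMSO (mean ± SD, n = 3). Adjusted p values are from edgeR across all genes, and the hour of harvest is not given in the sources used here.

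Other families chosen in the same way extend the protein synthesis lists. Of 17 cytosolic aminoacyl-tRNA synthetases, 12 fell and none rose. Of 9 subunits of the chaperonin CCT, which folds actin and tubulin, 8 fell and 1 rose. Of 21 small nucleolar RNA host genes, 11 fell and 1 rose. Of 75 mitochondrial ribosomal protein genes, 21 fell (28%) and 2 rose (2.667%), against 17.7% and 15.9% of all genes.

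ING4, a chromatin reader and one of the 12 largest rises, went from 5, 5.96 and 3.28 CPM in abemaciclib to 19.7, 15.9 and 17.1 CPM in the combination, a log2 fold change of 1.86 ± 0.24 (adjusted p = 7e-07) by edgeR.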
